A study of Mus musculus with 6 samples.

Results

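The 8 genes examined here encode the coat, neck and diaphragm proteins of endothelial caveolae: Cav1 and Cav2 (caveolins), Ptrf, Sdpr and Prkcdbp (the cavins, now named Cavin1, Cavin2 and Cavin3), Ehd2, Pacsin2 and Plvap. They were found by gene symbol among the 12623 genes of the deposited table, and all 8 were among the 12458 genes tested. Their transcript levels were measured by RNA-seq in endothelial cells (EC) of the lung, sorted from C57BL/6N mice for which no treatment or genetic change is given. The 3 infant libraries came from mice in the second postnatal week, when lung vessels still grow, and the 3 young adult libraries from mice around the third month of life, when lung EC are largely quiescent. In both groups the sort gate selected cells positive for CD31 and CD34 and negative for PTPRC, LYVE1, LY76 and PDPN. The comparison of the age groups addressed which genes change as lung EC become quiescent. Whether each library came from 1 mouse or from a pool is not given in the sources used here, so p-values measure the spread between these libraries.

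Caveolae are small flask-shaped pits of the plasma membrane and are especially dense in the capillary EC of the lung, where they carry proteins across the vessel wall and buffer membrane stretch. Caveolin-1 oligomers, with caveolin-2 as partner, form the membrane-embedded scaffold, and the cavins assemble around it as a peripheral coat for which Cavin1 is indispensable. EHD2 is an ATPase ring at the neck that holds caveolae at the surface, PACSIN2 (syndapin 2) is a membrane-bending F-BAR protein of the neck, and PLVAP (PV-1) is the EC protein that builds the thin diaphragm across caveolar necks and fenestrae.

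Values are RPKM, reads per kilobase of transcript scaled to the number of mapped reads, as the authors computed them. They are relative to all reads of a library, and the depth of each library is unknown, since the study gives only an average coverage. In bulk samples such as these, fewer cells of a type and less RNA per cell cannot be told apart. Globin genes took 3.41% to 23.5% of the RPKM total in infant libraries and 0.307% to 0.487% in young adult libraries. Infant replicate 2 stood apart from infant replicates 1 and 3 (Pearson correlations over genes of 0.963 and 0.964, against 0.987 between those) and reached 0.963 with young adult replicate 3. The study's methods name female mice. However, 4 Y-linked genes summed to 42.2 to 47.0 RPKM in each infant library and to 0 in each young adult library, so that the sex of the mice and their age cannot be told apart. The sorted cells held endothelial transcripts throughout: the geometric mean of 15 endothelial markers was 118 to 164 RPKM in infant and 179 to 191 RPKM in young adult libraries. Transcripts of other cells were present as well. Epithelial markers other than type I, above all Sftpc and Scgb1a1, summed to 6369 to 11209 RPKM in infant libraries. In young adult libraries they summed to 1781 to 8268 RPKM.

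Transcripts of all 8 caveola genes were higher on average in young adult EC, by a factor of 1.23 to 1.81 in mean RPKM. None was called under the rule of an adjusted p under 0.05 together with a log2 difference over 0.81, the fold threshold of the study (limma on log2(RPKM + 1), Benjamini-Hochberg over all tested genes). For 4 of them, Cav1, Cav2, Prkcdbp and Ehd2, the adjusted p was under 0.05 with a change under the fold threshold, and Plvap exceeded that threshold with an adjusted p of 0.0706. The 8 genes together made up 1440 to 2048 RPKM in infant and 2330 to 2585 RPKM in young adult libraries.

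**Figure D1:**
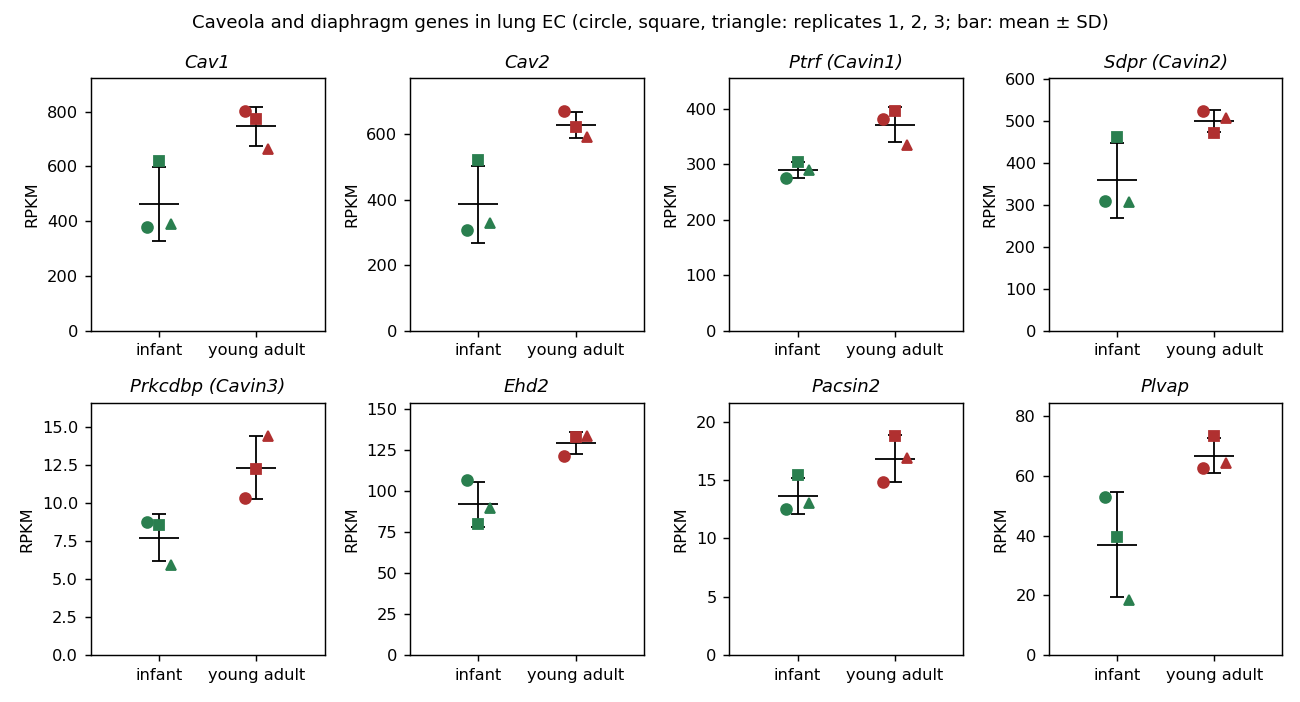
RPKM of the 8 genes in each library, 1 panel per gene with its own axis from 0. Green points are infant and red points young adult replicates, and bars are the mean ± SD (n = 3 each). The groups overlap only in Pacsin2, and infant replicate 2 (square) lies near the young adult libraries for Cav1, Cav2 and Sdpr but not for Ehd2.

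The caveolins were the most abundant of the 8. Cav1 (NM_007616, chromosome 6, 17306335 to 17341328, GRCm38) stood, in replicates 1 to 3 of each group, at 377.7, 618.9 and 390.6 RPKM in the infant libraries and at 801.8, 773.7 and 665.8 RPKM in the young adult ones. Every young adult library was above every infant library, and infant replicate 2 lay much closer to the young adult values than the other 2 infant libraries did. The means were 462.4 ± 136 and 747.1 ± 71.8 RPKM (SD, n = 3 each), a ratio of 1.62. On the log2(RPKM + 1) scale the difference was 0.72 ± 0.22 with a limma adjusted p of 0.0491 (here and below, errors of means are SD and errors of log2 differences are SE). By mean RPKM, Cav1 ranked 46th of the genes in infant and 28th in young adult EC. Its adjusted p was under 0.05 in 1 of the 6 fits that left out 1 library, that without infant replicate 2, in which the difference was 0.95 (adjusted p 0.00158) and the gene was called.

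Cav2 (NM_016900, chromosome 6, 17281185 to 17289130) stood at 308.4, 520.3 and 327.1 RPKM in the infant libraries and at 669.3, 620.3 and 592.0 RPKM in the young adult ones. The order was that of Cav1, with infant replicate 2 high within its group and no overlap between the groups. Means were 385.3 ± 117 and 627.2 ± 39.1 RPKM, a ratio of 1.63 and a log2 difference of 0.74 ± 0.22 (limma adjusted p 0.0432). Without infant replicate 2 the difference was 0.98 (adjusted p 0.000859), and Cav2 was called. In the other 5 such fits its adjusted p was above 0.05.

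Cav2 lies 17.2 kb upstream of Cav1 on the same strand, and no other gene of the table lies within 100 kb of Cav1. Among 4680 genes with a mean of at least 10 RPKM, Cav2 also had the profile over the 6 libraries most like that of Cav1, with a root mean square difference of 0.0461 between the centred log2(RPKM + 1) values, where Cav1 itself spread by 0.437. The next genes were Hpgd (0.0499), which encodes the prostaglandin-degrading enzyme 15-hydroxyprostaglandin dehydrogenase, and Pitpnc1 (0.0587), a phosphatidylinositol transfer protein gene. Hpgd stood at 564.5, 953.4 and 624.8 RPKM in the infant libraries and at 1158.2, 1205.0 and 980.5 RPKM in the young adult ones, so that it was high in infant replicate 2 as well. Likeness over 6 libraries that share 1 contrast and 1 high infant library is a description only. The table has 2 transcript rows for Cav1, but the second was 0.951 to 0.956 of the first in every library, so the rows did not measure the isoforms separately.

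Since Cav1, Cav2, Ptrf and Sdpr carry most of the caveola transcripts, the 250 bases before their annotated starts are shown (RefSeq, GRCm38.p6, 5′ to 3′ on the strand of the gene). Windows were available for 6 of the 8 genes, with several starts for some (10 windows). Capitals mark the letters CCAAT, the core of a CCAAT box, and the letters GGGCGG, the core of a GC box, read on either strand. For Cav1 the most upstream start was taken (chr6:17306085-17306334, + strand), with the others at chr6:17280935-17281184 (Cav2, + strand), chr11:100970618-100970867 (Ptrf, - strand) and chr1:51288876-51289125 (Sdpr, + strand).
Cav1: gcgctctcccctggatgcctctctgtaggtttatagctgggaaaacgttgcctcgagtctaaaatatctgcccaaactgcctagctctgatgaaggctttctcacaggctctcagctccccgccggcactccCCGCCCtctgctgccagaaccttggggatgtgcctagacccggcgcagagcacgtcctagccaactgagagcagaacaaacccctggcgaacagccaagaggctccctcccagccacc
Cav2: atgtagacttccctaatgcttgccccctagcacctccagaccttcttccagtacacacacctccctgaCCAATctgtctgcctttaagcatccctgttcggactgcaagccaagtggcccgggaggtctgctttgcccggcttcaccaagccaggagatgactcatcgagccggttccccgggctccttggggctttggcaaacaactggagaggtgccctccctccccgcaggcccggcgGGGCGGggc
Ptrf: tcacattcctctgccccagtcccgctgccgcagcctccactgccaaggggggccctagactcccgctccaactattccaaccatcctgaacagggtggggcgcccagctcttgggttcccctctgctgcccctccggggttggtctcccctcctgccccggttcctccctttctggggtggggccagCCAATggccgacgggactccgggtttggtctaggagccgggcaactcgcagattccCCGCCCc
Sdpr: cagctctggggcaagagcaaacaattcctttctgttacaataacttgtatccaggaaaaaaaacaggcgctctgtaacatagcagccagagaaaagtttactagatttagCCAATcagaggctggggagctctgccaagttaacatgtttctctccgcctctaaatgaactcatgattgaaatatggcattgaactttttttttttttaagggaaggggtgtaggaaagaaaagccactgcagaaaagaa
The 2 windows of Ptrf share 248 bases, so they are counted as 1, which leaves 9. CCAAT on either strand was in 5 of these 9, against 33.8% of 32851 windows of this length (overlapping ones included), and GGGCGG in 5 of 9, against 32.7%. The windows of Cav1, Cav2 and Ptrf held 59.6%, 62.0% and 67.6% G and C and that of Sdpr 40.4%, where the median over all windows was 52.4%. In this set only Sdpr lacked GGGCGG and only Cav1 lacked CCAAT. The letters TATAAA were in 1 of the 9 windows (12.4% of all), the Cav1 window shown, on the reverse strand. TGACTCA, the letters of an AP-1 site, was in 2 of the 9 (4.46% of all), the Cav2 window shown and 1 window of Pacsin2. CAGGAAG, 1 longer form of an ETS site, was in 0 of 9 (10.8% of all). All were searched on both strands. Shorter or other forms of an ETS site were not counted, so their absence is not shown. A match of letters describes the window and does not show that a factor binds there.

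The cavins differed in level and in their profile. Ptrf (NM_008986, chromosome 11, 100956736 to 100970617), the cavin without which caveolae do not form, stood at 276.0, 303.7 and 290.1 RPKM in the infant libraries and at 382.0, 395.5 and 335.6 RPKM in the young adult ones. The infant libraries were close to each other here, and infant replicate 2 was not set apart. Means were 289.9 ± 13.9 and 371.0 ± 31.4 RPKM, a ratio of 1.28, with a log2 difference of 0.35 ± 0.13 and a limma adjusted p of 0.0896. Without infant replicate 2 the difference was 0.39 with an adjusted p of 0.0490. The profiles most like that of Ptrf were those of Lgals8 (galectin 8), Alkbh6 and Rapgef5, with differences of 0.0354, 0.0396 and 0.0483, where Ptrf itself spread by 0.194.

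Sdpr (NM_138741, chromosome 1, 51289126 to 51302960), the cavin that shapes the membrane curvature of caveolae and is abundant in lung EC, stood at 307.8, 461.8 and 305.3 RPKM in the infant libraries and at 522.6, 471.7 and 507.2 RPKM in the young adult ones. Infant replicate 2, at 461.8 RPKM, came within 10 RPKM of young adult replicate 2. Means were 358.3 ± 89.6 and 500.5 ± 26.1 RPKM, a ratio of 1.40 and a log2 difference of 0.51 ± 0.19 (limma adjusted p 0.0904). Without infant replicate 2 the difference was 0.70 (adjusted p 0.00339), still under the fold threshold.

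Prkcdbp (NM_028444, chromosome 7, 105480616 to 105482197), the cavin first described as a binding protein of protein kinase C delta, was the least abundant of the 8. It stood at 8.7, 8.5 and 5.9 RPKM in the infant libraries and at 10.3, 12.2 and 14.4 RPKM in the young adult ones. The groups did not overlap, and infant replicate 3 was the lowest library. Means were 7.70 ± 1.56 and 12.3 ± 2.05 RPKM, a ratio of 1.60 and a log2 difference of 0.62 ± 0.17 (limma adjusted p 0.0338).

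The neck proteins were measured next. Ehd2 (NM_153068, chromosome 7, 15946963 to 15967535) stood at 106.5, 79.7 and 89.4 RPKM in the infant libraries and at 121.4, 133.0 and 133.8 RPKM in the young adult ones. Unlike the caveolins, Ehd2 was lowest in infant replicate 2. Means were 91.9 ± 13.6 and 129.4 ± 6.94 RPKM, a ratio of 1.41 and a log2 difference of 0.50 ± 0.13. The limma adjusted p of 0.0311 was the smallest among the 8, and it was under 0.05 in 2 of the 6 fits without 1 library.

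Pacsin2 (NM_001159510, chromosome 15, 83375607 to 83464610) stood at 12.5, 15.4 and 13 RPKM in the infant libraries and at 14.8, 18.8 and 16.9 RPKM in the young adult ones. It was the only one of the 8 whose groups overlapped, as infant replicate 2 was above young adult replicate 1. The means of 13.6 ± 1.55 and 16.8 ± 2.0 RPKM gave a log2 difference of 0.28 ± 0.12 that did not pass the test (limma adjusted p 0.122). Its 3 transcript rows differed by a near constant factor in all libraries (0.976 to 0.994) and were not separate measurements.

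Plvap (NM_032398, chromosome 8, 71497753 to 71511806), the diaphragm gene, had the highest ratio of the 8 and, among the infant libraries, the widest relative spread. It stood at 53.1, 39.5 and 18.4 RPKM in the infant libraries and at 62.7, 73.5 and 64.3 RPKM in the young adult ones. The young adult libraries were all above the infant libraries, but infant replicate 1 lay within 10 RPKM of young adult replicate 1 and infant replicate 3 far below. Means were 37.0 ± 17.5 and 66.8 ± 5.83 RPKM, a ratio of 1.81. The log2 difference of 0.96 ± 0.33 had a limma adjusted p of 0.0706, so that Plvap was not called. Without infant replicate 1 it was 1.27 (adjusted p 0.0419, called), and without infant replicate 3 it was 0.53 (adjusted p 0.0698). Infant replicate 3 also had the highest globin share, 23.5%. With the libraries rescaled without the globin genes, the difference was 0.85 (limma adjusted p 0.0944). The part of the globin share in the Plvap values was not tested.

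No gene had a profile as close to Plvap as Cav2 had to Cav1. The nearest were Eng (0.289), which encodes the TGFb co-receptor endoglin, Nod1 (0.292) and Gm12216 (0.292), where Plvap itself spread by 0.653. Within 100 kb of Plvap the table held 12 genes. Of these Bst2 (tetherin, an interferon-induced antiviral protein; 22.4 kb away) was called higher, with a log2 difference of 1.30 ± 0.28 (limma adjusted p 0.0158), and so was Tmem221 (0.94, adjusted p 0.0216), each in only 2 of the 6 fits without 1 library. Slc27a1, a fatty acid transport protein gene, was called lower (-1.76, adjusted p 0.00672), also in all 6 such fits. Its infant values (5.5, 1.8 and 3.6 RPKM) were lowest in replicate 2, as were the summed fibroblast, mural, erythroid, arterial, and venous and bronchial markers. A link between them was not tested. The gene that overlaps Plvap, Gtpbp3, measured 1.9 to 3.7 RPKM in infant and 1.3 to 2.6 RPKM in young adult libraries and did not pass the test. Whether the counting used strand is not given in the sources used here, so reads in that overlap cannot be told apart.

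**Figure D2:**
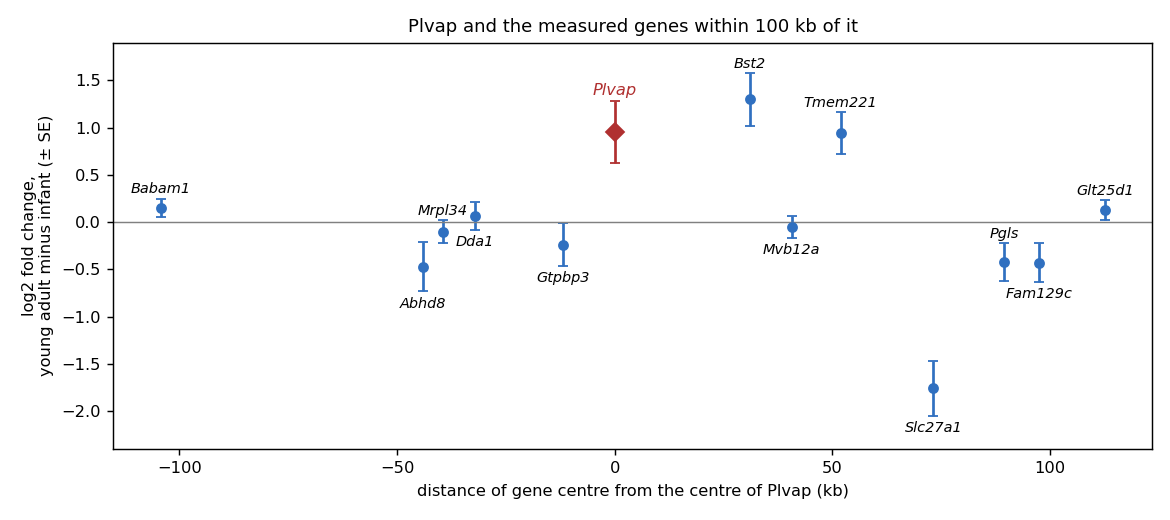
Log2 fold change (young adult minus infant, log2(RPKM + 1) ± SE) of Plvap (red diamond) and the 12 measured genes within 100 kb (blue), against the distance of each gene's centre from that of Plvap. Bst2 (1.30) and Tmem221 (0.94) lie at a similar height to Plvap (0.96), Slc27a1 lies at -1.76 and the other neighbours lie near 0 or slightly below.

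Read against the rest of the transcriptome, the members called higher (0 of 8) and lower (0 of 8) stand beside 3.33% and 8.1% of all tested genes. The 4 genes with an adjusted p under 0.05 and a higher level stand beside 9.27% of all tested genes. All 8 had an unadjusted p under 0.05 in the higher direction, which 15% of tested genes had, and 7 of 8 had no overlap with the young adult libraries higher, which 16.4% had. The median log2 difference of the 8 was 0.56, against -0.07 over all tested genes, and 6.13% of all genes lay above that median. These genes belong to 1 structure and the libraries are the same for all of them, so the counts describe the 8 genes and are not independent of each other.

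Because RPKM depends on what else a library holds, the differences were recomputed under other scalings. The median of the 8 was 0.70 with scaling to the library medians, 0.42 after quantile normalization and 0.46 without the globin genes. All 8 remained higher in each, and 8, 1 and 2 of them, respectively, had an adjusted p under 0.05. As the share of all genes with an adjusted p under 0.05 is not given, these counts cannot be read as a result about the 8 under these scalings. Under the first of them Cav1, Cav2 and Plvap were called. That scaling called 564 of 12458 tested genes higher, against 415 as deposited. When the libraries were scaled to their 15 endothelial markers, of which 13 were themselves higher in young adult libraries, the median of the 8 was 0.14 and none had an adjusted p under 0.05. Per endothelial marker, Ptrf (-0.092) and Pacsin2 (-0.13) were slightly lower in young adult EC, Ehd2 and Sdpr were both at 0.06, Cav1 and Cav2 were at 0.28 and 0.30, and Plvap was at 0.52 (adjusted p 0.133). That scaling moved the median of all genes to -0.44 and the share of higher genes among all calls from 29.1% to 8.86% (46.6% after quantile normalization). Relative to the median of all genes, the median of the 8 was higher by 0.63 as deposited and by 0.37 after quantile normalization. Each of the 8 lay above it in both. The other scalings divide each library by a single factor, which shifts all genes almost alike. Their values (0.65 with median scaling, 0.62 without globin genes and 0.58 per endothelial marker) were therefore bound to lie near 0.63 and are no further check.

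**Figure D3:**
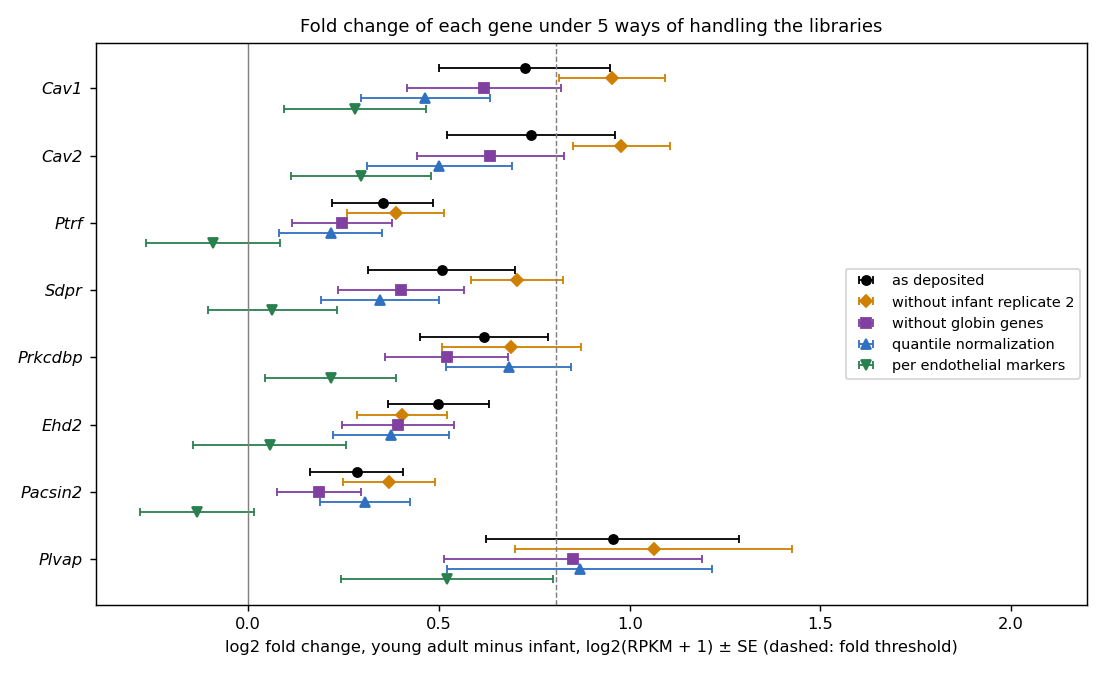
Log2 fold change (young adult minus infant) with its SE for each gene under 5 ways of handling the libraries, on the log2(RPKM + 1) scale. The dashed line marks the fold threshold (0.81). Leaving out infant replicate 2 moves Cav1 and Cav2 past it (0.95 and 0.98), and scaling to the endothelial markers moves Ptrf and Pacsin2 to just under 0 (-0.092 and -0.13).

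How far infant replicate 2 departed from the other infant libraries differed among the 8 genes. Its value was 1.61, 1.64 and 1.51 times the mean of infant replicates 1 and 3 for Cav1, Cav2 and Sdpr, 1.07 to 1.21 times for Ptrf, Prkcdbp, Pacsin2 and Plvap, and 0.814 times for Ehd2. The median over genes with at least 1 RPKM was 0.992. In the same library the summed endothelial markers were 1.44 times the mean of the other infant libraries (12 of 15 genes above both of them). Aerocyte markers were at 1.61 times (7 of 8 above) and other epithelial markers at 1.53 times (5 of 7 above). Type I epithelial markers, of a cell type that also makes caveolae, were at 1.36 times (3 of 7 above, 2 below). Emp2 and Clic5 made up most of that excess. General capillary markers summed to 1.38 times, with 4 of 7 above and 3 below, and Gpihbp1 made up most of the excess. Erythroid markers were lowest, at 0.175 (7 of 7 below both). Mural markers were at 0.294 (9 of 10 below both) and fibroblast markers at 0.305 (8 of 10 below), though the fibroblast genes Dcn and Lum were higher in infant replicate 2. Venous and bronchial markers were at 0.791 (2 of 5 below, 1 above) and arterial markers at 0.782 (3 of 7 below, 2 above). Lymphatic markers were at 2.02 times (2 of 5 above, 1 below). The part of this make-up in the caveola values was not tested.

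Ratios between the genes within a library do not depend on its scaling, and 7 were compared. Cav2 stood to Cav1 at 0.817, 0.841 and 0.837 in infant and at 0.835, 0.802 and 0.889 in young adult libraries. This ratio was the steadiest, with a difference of 0.02 on the log2 scale (pooled SD 0.06, exact two-sided permutation p = 0.9), and it was alike in infant replicate 2 and the other infant libraries. The ratio of Ptrf to Cav1 was 0.731, 0.491 and 0.743 in infant and 0.476, 0.511 and 0.504 in young adult libraries. Infant replicate 2 lay among the young adult values, and the other 2 infant libraries lay above all of them (difference -0.37, exact permutation p = 0.3). Plvap stood to Cav1 at 0.141, 0.0638 and 0.0471 in infant and at 0.0782, 0.0950 and 0.0966 in young adult libraries, so that infant libraries lay on both sides of the young adult range (difference 0.25, p = 0.6 by the same exact test). That difference rested on single infant libraries, as leaving out infant replicate 1 gave 0.71, leaving out infant replicate 2 gave 0.14 and leaving out infant replicate 3 gave -0.082. The other 4 ratios differed by -0.42 (Pacsin2 to Cav1) to 0.33 (Prkcdbp to Ptrf), and with 3 libraries a group the test cannot go below 0.1. No ratio passed the test (exact permutation p of 0.2 to 0.9, 0.7 to 0.9 after adjustment over the 7), which does not show that the proportions were the same.

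**Figure D4:**
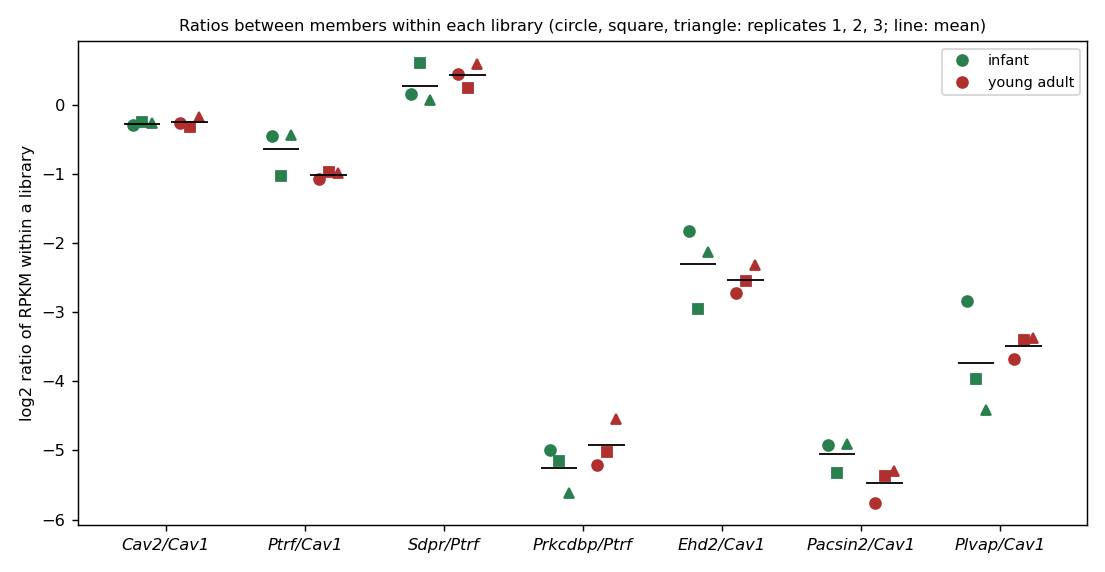
Log2 ratio of RPKM between pairs of the 8 genes within each library, infant (green) and young adult (red), with the mean of each group as a line. The ratio of Cav2 to Cav1 is nearly constant over the 6 libraries, while that of Plvap to Cav1 ranges from 0.0471 to 0.141 among the infant libraries alone.

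Genes around the caveola machinery were taken from 6 lists (62 genes, 55 measured and tested). Of these 55, 4 were called higher and 8 lower as deposited, in both directions a larger share than over all tested genes (3.33% and 8.1%). Their median log2 difference was -0.01, and 27 were higher and 28 lower in young adult EC. After quantile normalization 2 and 5 were called, beside 532 and 610 of all 12458 tested genes. The share of the 55 called higher was then below that of all genes, and the share called lower was above it. As deposited, the median of the 55 lay near that of all genes, where the 8 caveola genes lay above it.

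Among the paralogues of the caveola proteins, 2 of the 5 tested were called lower and 0 higher. Ehd3, an EHD ATPase of endosomal recycling, stood at 9.3, 9.0 and 10.2 RPKM in the infant libraries and at 4.2, 4.4 and 4.7 RPKM in the young adult ones. The difference of -0.95 ± 0.09 (limma adjusted p 0.00132) was in the direction opposite to that of Ehd2, and it was called in all 6 fits without 1 library. Ehd1, also a recycling ATPase, had a difference of 0.80 (adjusted p 0.0124), just under the fold threshold, and Ehd4 of 0.30 (adjusted p 0.426). Pacsin3 was called lower (-1.25, adjusted p 0.0218) at levels of at most 0.4 RPKM in young adult libraries, but in only 2 of the 6 fits without 1 library and not after quantile normalization. Its infant values (3.2, 0.8 and 2.0 RPKM) were lowest in replicate 2, as were the summed fibroblast, mural, erythroid, arterial, and venous and bronchial markers. A link between them was not tested. The muscle cavin gene Murc was at 0.7 to 1.6 RPKM over the 6 libraries, with a difference of -0.02.

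Of the 13 tested genes of caveola scission and signalling, 1 was called higher and 1 lower. Dnm3, a dynamin gene, measured 0.6 to 1.3 RPKM in infant and 3.0 to 3.6 RPKM in young adult libraries (1.13, limma adjusted p 0.00386), whereas Dnm2, the ubiquitous dynamin that pinches off caveolae, was far more abundant and had a difference of -0.08. Flna, whose product filamin A ties caveolae to actin and is also abundant in mural cells and fibroblasts, was called lower (-1.32, adjusted p 0.0241), and only 1 of the 6 fits without 1 library called it. Nos3, the endothelial nitric oxide synthase that binds caveolin-1, had a difference of 0.01 and its trafficking partner Nostrin of 0.39, neither past the test.

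The flotillins, which form other membrane microdomains, were both higher with an adjusted p under 0.05, under the fold threshold (Flot1 0.52, Flot2 0.61). Of the 16 tested genes of the clathrin coat and its adaptors, the main other route of endocytosis, 0 were called, with a median of -0.04. Epn2 (0.49, limma adjusted p 0.0103) was higher and Dab2 (-0.41, adjusted p 0.0354) lower with an adjusted p under 0.05, also under the fold threshold. The clathrin heavy chain gene Cltc measured 58.6 to 66.7 RPKM in infant and 58.8 to 67.8 RPKM in young adult libraries, overlapping almost wholly.

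Of the 10 tested transcytosis receptors and regulators, 3 were called higher and 3 lower. Gpihbp1, which carries lipoprotein lipase across capillary EC, had a difference of 1.17 (limma adjusted p 0.0138), the fatty acid receptor gene Cd36 of 1.08 (adjusted p 0.0402) and Acvrl1, which encodes the receptor ALK1, of 0.94 (adjusted p 0.0127). Of the 6 fits without 1 library, 4 called Gpihbp1, 1 called Cd36 and 5 called Acvrl1, and after quantile normalization Cd36 (0.75) and Acvrl1 (0.77) lost the call. Like the caveolins, Gpihbp1 and Cd36 were highest among the infant libraries in replicate 2. Lrp1 (-2.37), Ager (-1.36) and the transferrin receptor gene Tfrc (-0.81) were called lower, in 6, 3 and 3 of those 6 fits, and Tfrc lost the call after quantile normalization (-0.54). In lung, Lrp1 is also a gene of fibroblasts and Ager one of type I epithelial cells. Of the 9 tested genes of sphingomyelin and cholesterol handling, the lipids of the caveolar membrane, Abca1, a cholesterol exporter gene, was called lower (-1.53, adjusted p 0.000997) with all libraries and in all 6 fits without 1 library. Sgms2 was called lower too (-1.16, adjusted p 0.0249), but in only 1 of those 6 fits and not after quantile normalization, and 0 genes of the list were called higher. The infant values of Sgms2 (2.4, 0.6 and 2.2 RPKM) were also lowest in replicate 2, as were the summed fibroblast, mural, erythroid, arterial, and venous and bronchial markers. A link between them was not tested. Sgms1, which encodes a sphingomyelin synthase, stood at 7.7, 27.4 and 8.5 RPKM in the infant libraries and at 44.1, 36.9 and 19.0 RPKM in the young adult ones, with infant replicate 2 again high (1.29, adjusted p 0.085).

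Other lung cells also make caveolae, above all type I epithelial cells, fibroblasts and smooth muscle cells, so their markers were set beside the caveola genes. Of the 10 fibroblast and of the 10 mural markers, 9 each were called lower, and their sums ranged from 335.5 to 1291 and from 70.1 to 238.1 RPKM in infant and from 10.4 to 24.0 and from 12.1 to 16.5 RPKM in young adult libraries. The RPKM of these markers was thus lower where that of the 8 caveola genes was higher. As RPKM is relative, a fall of some transcripts raises the share of the rest. Which cells the caveola transcripts came from was not tested. Type I epithelial markers summed to 444.2 to 624.2 RPKM in infant and 398.7 to 605.8 RPKM in young adult libraries, with 1 of 7 called higher and 1 lower. Emp2 alone, which changed by -0.02, made up most of each sum. Of the 7 markers, 5 were lower and 2 higher in young adult libraries, so the sum does not stand for all of them. All 7 erythroid markers were called lower, as were 2 of 8 leukocyte and 2 of 7 other epithelial markers and the 1 mesothelial marker measured, and in no list was a marker at 0 in all libraries of a group. Among EC subtypes, 3 of 7 general capillary markers were called higher (median 1.02), and of 5 markers of venous and bronchial EC, in which Plvap is known to be abundant, 4 were called higher and 1 lower (median 2.03). Aerocyte markers had a median of -0.68 with 2 of 8 called lower, 1 of 7 arterial markers was called lower and 1 of 5 lymphatic markers higher. The latter was Lyve1, whose protein the gate selected against and whose transcript stood at 68.6 to 171.4 RPKM in infant and 252.9 to 396.4 RPKM in young adult EC (1.65, limma adjusted p 0.0132). The part of these shifts in the caveola values was not tested.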

How the data were processed

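The series holds RNA-seq of sorted lung EC, with group and replicate number taken from the title of each of the 6 libraries. The authors aligned reads to mm10 with STAR and counted on RefSeq (versions are not given in the sources used here), and the deposited table holds RPKM rounded to 1 decimal, 1 row per transcript (17241 rows). Whole reads could not be computed back, so no depth per library and no counting interval is given. The amplification of small RNA amounts can add noise to low values. Symbols turned into dates (24 rows) were restored from the accession, and the row with the highest mean RPKM was kept per gene.

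Every gene that reached an RPKM of 1 somewhere entered the test, which was limma 3.58.1 in R 4.3.3 (lmFit, eBayes with intensity trend, two-sided) on log2(RPKM + 1), a pseudocount of 1, which understates changes of low genes. The count test of the study, DESeq2, was not used because the values are RPKM. Calls needed a Benjamini-Hochberg adjusted p under 0.05 and a log2 difference over 0.81. Ratios were compared by exact permutation with adjustment over 7. The members, lists and tests were chosen with earlier results of these data known. Named genes are the 8 members, list genes (called ones first, at most 4 a list, plus a few named after their values were seen: Ehd1, Ehd4, Murc, Dnm2, Nos3, Nostrin, Cltc, Sgms1, Dcn, Lum, Lyve1 and the lower transcytosis genes), the 3 nearest profiles of Cav1, Ptrf and Plvap, and neighbours within 100 kb. Alternatives were pseudocounts of 0.1 and 5, other filters, 4 other scalings, other variance models, a replicate block, the mean over transcript rows and leaving out each library.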

Additional observations from a re-analysis of the deposited data

How the results depend on the processing

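Of 160 alternative fold changes of the 8 genes (20 for each), 158 kept the higher direction in young adult EC, and the 2 that reversed were Ptrf (-0.092) and Pacsin2 (-0.13) with scaling to the endothelial markers. Many of the 160 could not reverse. Other filters, the replicate block and most variance models leave the fold change itself unchanged. Leaving out 1 library cannot reverse a gene whose groups do not overlap. The count of 158 is therefore no measure of robustness. The number of the 8 genes called higher, 0 as deposited, was 3 with median scaling, 3 with array weights, 4 with an adjusted p and no fold threshold, and 0 to 2 when 1 library was left out. Plvap was the 1 called without infant replicate 1, and Cav1 and Cav2 were the 2 called once infant replicate 2 was left out. Over all tested genes, the number called higher was 415 as deposited, 564 with median scaling and 512 with array weights. It was 1155 with no fold threshold, 312 without infant replicate 1 and 566 without infant replicate 2. The number with an adjusted p under 0.05, 4 as deposited, went to 7 on leaving out infant replicate 2, to 2 on leaving out infant replicate 1 and to 0 on leaving out infant replicate 3 or any 1 young adult library. The share of all genes higher at that adjusted p is given here only for the values as deposited (9.27%). Counts at that adjusted p under the other settings therefore have no background to be read against. With quantile normalization the genes of the 6 surrounding lists called higher went from 4 to 2 and those called lower from 8 to 5. Leaving out 1 library turned the sign of 3 ratios: Plvap to Cav1 ranged from -0.082 to 0.71, Ehd2 to Cav1 from -0.55 to 0.016 and Cav2 to Cav1 from -0.023 to 0.051. The cause was not tested, except that leaving out a library removes samples. Replicate numbers did not pair the libraries (correlations of the deviations of same-numbered libraries of 0.0282, -0.110 and -0.0210), and a fit with a replicate block called 0 of the 8 genes, with 0 at an adjusted p under 0.05. Over all genes 1424 were called, against 578 with a pseudocount of 5 (41.5% of them higher), 176 in a test against the fold threshold itself, 2382 with scaling to the endothelial markers and 846 to 1874 when 1 library was left out. Read depth is unknown, and 3 libraries a group limit what the tests can call.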
